A study of Mus musculus with 12 samples.

Results

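The let-7 and miR-98 family was followed in the livers of mice with carbon tetrachloride (CCl4) injury that were given PZH or water. The family is described here by 10 rows of the deposited table of 1929 mature mouse miRNAs. They are the guide arms (5p) of let-7a, let-7b, let-7c, let-7d, let-7e, let-7f, let-7g, let-7i and miR-98, plus the opposite (3p) arm of let-7e, and they were taken by name. All 10 passed the filter on low counts. Small RNA was sequenced from 12 liver samples of C57BL/6 mice, with 1 library per sample. The labels do not say that each sample is a separate mouse, and each sample is called a liver here. In the PZH group, with 6 samples, mice received CCl4 by intraperitoneal injection 2 times a week. They were given PZH (Pien Tze Huang, a Chinese herbal and animal preparation) into the stomach 1 time a day. The other 6 samples came from mice that had the same injections and were given double distilled water by the same route. The labels word the injection as a CCl4 solvent in both groups and call the mice a hepatic fibrosis model. Their wording of the injection schedule is unclear, and 2 times a week is the reading taken here. Livers without CCl4 were not analysed here, so each value describes injured liver, and the labels give neither the dose nor the length of treatment. Total counts ranged from 6065480 to 10436478 in PZH libraries and from 4961913 to 20211784 in water libraries. Hepatocyte markers, among them miR-122-5p, were abundant: the 7 listed summed to 207024 to 270246 CPM (counts scaled to a common library total) in PZH livers and 227059 to 262670 CPM in water livers.

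Members of the let-7 family are among the most conserved miRNAs of animals. They rise as cells differentiate and repress messages for growth and stem-cell proteins, such as Lin28a, Hmga2, Myc and the Ras genes. The family members pair with their targets mainly through the seed, bases 2 to 8 of the mature strand, so members with the same seed can act on overlapping sets of messages. A hairpin is cut into 2 arms, of which the guide is usually kept in the silencing complex and the other, the passenger, is mostly degraded. The RNA-binding protein LIN28 blocks this processing in many let-7 precursors by holding a GGAG stretch beside the terminal loop.

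The mature sequences are shown because the 9 guides differ from each other by few bases, which bears on how their counts can be told apart. Letters are RNA, 5′ to 3′, from RefSeq (GRCm38.p6), and capitals mark the seed. A RefSeq sequence was found for all 10 members, whose names carry the mouse prefix mmu in the table.
let-7a-5p: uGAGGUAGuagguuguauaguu
let-7c-5p: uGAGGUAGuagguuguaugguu
let-7b-5p: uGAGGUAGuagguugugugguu
let-7f-5p: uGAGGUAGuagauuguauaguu
let-7e-5p: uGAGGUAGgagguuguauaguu
let-7d-5p: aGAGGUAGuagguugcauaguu
miR-98-5p: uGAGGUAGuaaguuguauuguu
let-7g-5p: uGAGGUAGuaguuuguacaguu
let-7i-5p: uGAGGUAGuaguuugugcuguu
let-7e-3p: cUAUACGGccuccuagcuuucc

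All 9 guides carried the seed GAGGUAG and were 22 bases long, while let-7e-3p has another seed. Of the 36 pairs of guides, 4 differed by 1 base and the most distant differed by 6. Counted from 1 at the 5′ end, with the base of let-7a-5p first, let-7c-5p differs by A19G, let-7e-5p by U9G and let-7f-5p by G12A. The guide let-7b-5p differs from let-7a-5p by A17G and A19G, and so lies 1 base from let-7c-5p. The other 4 guides lie at least 2 bases from every other guide, among them let-7d-5p, whose changes from let-7a-5p are U1A and U16C. How the authors counted reads that match several of these sequences is not given in the sources used here, so neighbours that are 1 base apart may share reads.

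The guides come from 12 hairpins, and let-7a-5p, let-7c-5p and let-7f-5p each stand in 2 of them. Positions are on GRCm38, with hosts on the same strand from GENCODE. On chromosome 13, let-7a-1 (chr13:48538179-48538272), let-7f-1 (chr13:48537829-48537917) and let-7d (chr13:48536012-48536114) lie on the minus strand in an exon of the non-coding RNA gene 6720427I07Rik. On chromosome 15, let-7c-2 (chr15:85706603-85706697) and let-7b (chr15:85707319-85707403) lie on the plus strand in an exon of the non-coding gene Lncppara. Introns of the ubiquitin ligase gene Huwe1 on chromosome X hold let-7f-2 (chrX:151912346-151912428) and miR-98 (chrX:151913214-151913321), and let-7g (chr9:106178840-106178927) is in an intron of Wdr82. The hairpin of let-7i (chr10:122985640-122985724, minus strand) overlaps an exon of the transcribed pseudogene D630033A02Rik. The remaining hairpins lie beside miR-99, miR-100 and miR-125 genes: let-7a-2 (chr9:41536716-41536811), let-7c-1 (chr16:77599657-77599750) and let-7e (chr17:17830352-17830444).

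The letters GGAG were found on the hairpin's own strand between the arms in 9 of the 12 family hairpins (75.0%), against 53 of all 645 mouse hairpins with both arms in RefSeq (8.22%). The stretch between the arms had a median length of 30.5 bases in the family and 16 bases in all hairpins, so the windows are not of equal length. Those without the letters were let-7b, let-7c-2 and miR-98. The hairpins of let-7e and let-7b, which each gave a call in the tests below, are shown with both arms in capitals.
let-7e hairpin: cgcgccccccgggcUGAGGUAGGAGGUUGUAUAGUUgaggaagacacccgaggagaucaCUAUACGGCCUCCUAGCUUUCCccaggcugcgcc
let-7b hairpin: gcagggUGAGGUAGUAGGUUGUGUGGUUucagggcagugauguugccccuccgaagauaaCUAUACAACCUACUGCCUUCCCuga

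The family made up 5.77% ± 0.484 of all counts in PZH livers and 5.13% ± 0.265 in water livers, summed over the 9 guides (SD, n = 6 each). This share was between 5.25% and 6.56% in PZH livers and between 4.68% and 5.43% in water livers, and 4 of 6 PZH livers lay above every water liver. Levels below are CPM after TMM scaling, which corrects for library composition. All guides are equally long, so their levels can be set side by side, although capture of each sequence by the library kit may differ. The most abundant guide was let-7g-5p (mmu-let-7g-5p) at 17666 ± 1694 CPM over the 12 libraries (SD, n = 12), rank 15 of all 1929 rows. Next came let-7f-5p (mmu-let-7f-5p) at 14817 ± 1253 CPM, let-7i-5p (mmu-let-7i-5p) at 6766 ± 1000 CPM and let-7c-5p at 5532 ± 733 CPM. The level of let-7a-5p was 4750 ± 536 CPM, that of let-7b-5p 2611 ± 382 CPM and that of let-7d-5p 1334 ± 145 CPM. The scarcest guides were miR-98-5p at 548 ± 55.6 CPM and let-7e-5p at 489 ± 76.4 CPM. The arm let-7e-3p stood at 10.5 ± 3.04 CPM, rank 339.

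This order held in all 12 libraries for every step but that from miR-98-5p to let-7e-5p. There it held in 10 of 12 libraries, with a ratio between 0.976 and 1.54, and the difference was not tested. The steps from let-7i-5p to let-7c-5p and from let-7c-5p to let-7a-5p were small in some livers, with lowest ratios of 1.02 each. From let-7g-5p to let-7f-5p the lowest ratio was 1.04. By contrast, let-7f-5p was 1.71 to 2.55 times as high as let-7i-5p.

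**Figure D1:**
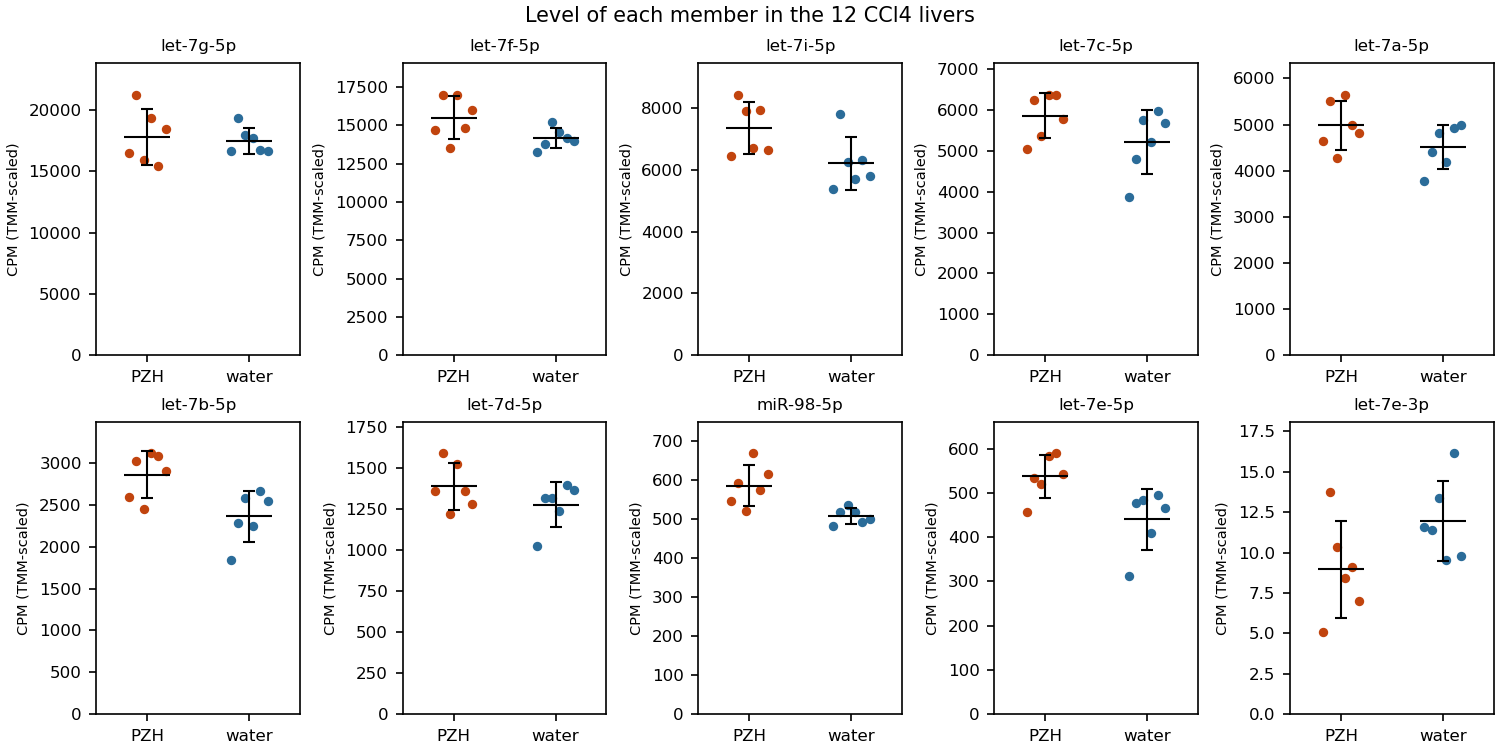
Level of the 10 members in each of 6 PZH livers (left) and 6 water livers (right), in CPM after TMM scaling, with every axis starting at 0. Points are libraries, the long bar is the mean and the whisker is 1 SD; groups overlap in every panel, and let-7b-5p is the only member that passed the test.

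In both groups let-7g-5p and let-7f-5p held the largest parts of the pool of guides. The share of let-7g-5p among summed guide counts was 31.3% ± 1.79 in PZH livers and 33.6% ± 1.78 in water livers (SD, n = 6 each). For this guide 2 PZH livers lay below every water liver, and 3 water livers lay above every PZH liver. For let-7i-5p the share was 13.0% ± 1.63 in PZH livers and 11.9% ± 1.20 in water livers, with water replicate 2 at 14.2% and the next water liver at 11.8%. The share of let-7b-5p was 5.04% ± 0.318 in PZH livers and 4.51% ± 0.428 in water livers, and 4 water livers lay below every PZH liver. The share of let-7f-5p was 27.2% in each group. These shares are given without a test, since parts of a whole move together, and for every guide the ranges of the groups overlapped.

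**Figure D2:**
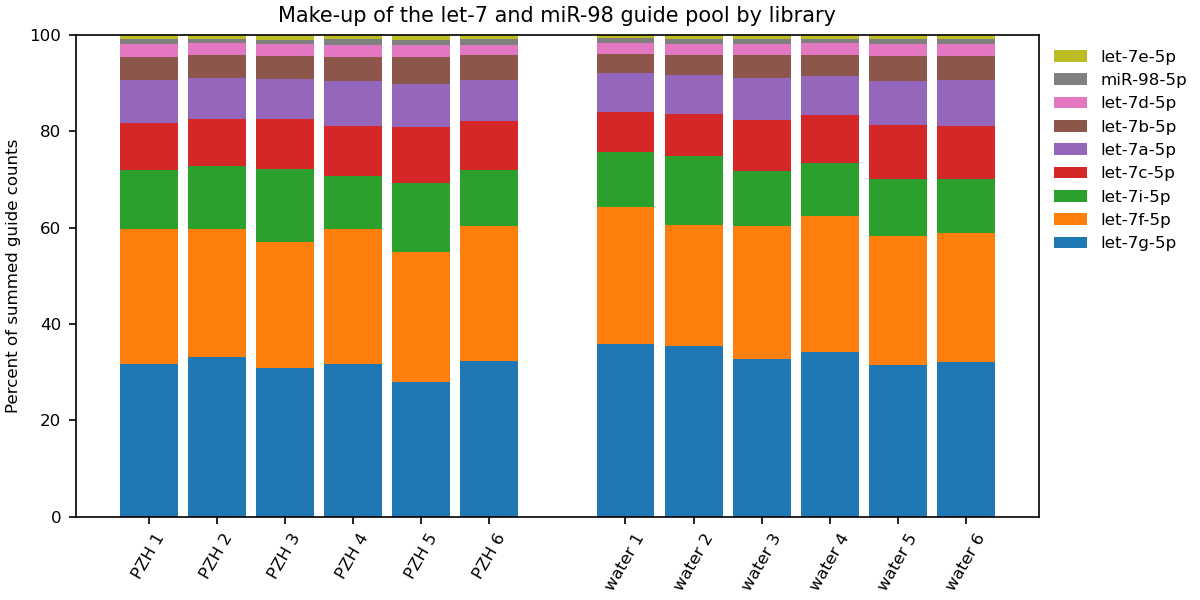
Percent of the summed counts of the 9 guide arms held by each guide, per library, with PZH libraries on the left and water libraries on the right. Stacks run from the most to the least abundant guide and sum to 100; let-7g-5p and let-7f-5p hold the largest parts in each of the 12 libraries.

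The question of the study was which miRNAs respond to PZH in fibrotic liver. Within the family, let-7b-5p rose with PZH by 1.21-fold, and the other 8 guides had positive log2 fold changes that did not pass the test. The 3p arm of let-7e had a negative value that did not pass either. The median log2 fold change was 0.17 over the 9 guides and 0.16 over the 10 members, against -0.03 over all 607 tested miRNAs. By edgeR's quasi-likelihood test with Benjamini-Hochberg adjustment over those 607, at an adjusted p under 0.05, 1 of 10 members was called, and it was higher with PZH. Over all tested miRNAs 21.3% were called, 9.88% higher and 11.4% lower, so the members' share of 1 in 10 higher is near the background. In a bulk liver sample, fewer cells of a type and less RNA per cell cannot be told apart.

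The level of let-7b-5p (mmu-let-7b-5p) was between 2446 and 3115 CPM with a median of 2964 CPM in PZH livers, and between 1841 and 2667 CPM with a median of 2414 CPM in water livers. Of the PZH livers, 4 lay above every water liver, and the lowest water value was that of replicate 1. The means were 2861 ± 277 CPM with PZH and 2360 ± 306 CPM with water (SD, n = 6 each; log2 fold change 0.28, SE 0.10, edgeR adjusted p = 0.0495). The hairpin of let-7b lies 621 bases from that of let-7c-2, and the adjusted p of let-7b-5p is close to the threshold. With every miRNA kept, however low, edgeR's adjusted p was 0.0527, and the call was also lost when PZH replicate 2, 4, 5 or 6 or water replicate 1, 2, 3, 4 or 6 was left out (edgeR adjusted p between 0.0555 and 0.116, log2 fold change between 0.21 and 0.30). Its interval of 0.07 to 0.48 on the log2 scale (95%) covers changes from slight to 1.40-fold.

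The guide let-7e-5p, from the chromosome 17 cluster, had the largest log2 fold change of the 9 but did not pass the test. It lay between 457 and 590 CPM with a median of 538 CPM in PZH livers and between 313 and 495 CPM with a median of 471 CPM in water livers. The groups overlapped through PZH replicate 1, the lowest PZH value, and the other 5 PZH livers lay above every water liver. Its log2 fold change was 0.29 (SE 0.11, edgeR adjusted p = 0.0777). The level of miR-98-5p was between 521 and 670 CPM with a median of 584 CPM in PZH livers, against 482 to 537 CPM with a median of 510 CPM in water livers. Here 5 of 6 PZH livers lay above every water liver, and the value was 0.21 (SE 0.08, edgeR adjusted p = 0.0703). The guide let-7i-5p was between 6451 and 8425 CPM with a median of 7289 CPM in PZH livers and between 5374 and 7786 CPM with a median of 6016 CPM in water livers. Water replicate 2 was its highest water value, and 5 of 6 water livers lay below every PZH liver. The log2 fold change of let-7i-5p was 0.24 (SE 0.10, edgeR adjusted p = 0.0913). Without water replicate 2 it was 0.31 (edgeR adjusted p = 0.0118), and this was the only 1 of 12 omissions in which it was called. In that omission 9.63% of all tested miRNAs were called higher.

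The other 5 guides had values from 0.03 to 0.17, and none passed the test. For let-7g-5p the level was between 15428 and 21265 CPM with a median of 17488 CPM in PZH livers and between 16625 and 19335 CPM with a median of 17238 CPM in water livers. The PZH livers spanned the whole range of the water livers, with 2 above and 3 below them all. Its log2 fold change was 0.03, with a 95% interval of -0.15 to 0.20, and turned to -0.01 without PZH replicate 2 or without PZH replicate 4. The value for let-7f-5p was 0.13 (edgeR adjusted p = 0.205), with 15483 ± 1399 CPM in PZH livers and 14152 ± 660 CPM in water livers (SD, n = 6 each). The chromosome 13 partner let-7d-5p stood at 0.12, let-7a-5p at 0.14 and let-7c-5p at 0.17. Each of these 3 overlapped between groups, and their edgeR adjusted p lay between 0.280 and 0.419.

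In the water group, replicate 1 had the lowest level of 8 of the 9 guides. Without that library the median log2 fold change of the guides was 0.11, and all 9 values stayed positive. All 9 were positive under each scaling, filter and tool tried, and let-7g-5p was the only guide whose sign turned when a library was left out. Other settings called more members: edgeR with RLE scaling, edgeR with total-count scaling and DESeq2 each called 4, namely let-7b-5p, let-7e-5p, let-7i-5p and miR-98-5p. All 4 were higher with PZH, and of all tested miRNAs 11.9% were called higher with RLE scaling, 11.2% with total-count scaling and 12.9% with DESeq2, which called 23.7% in either direction.

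Several lists of cell type markers held calls as well, and their part in the family's values was not tested. Both endothelial markers, the 2 arms of miR-126a, were called lower. Their summed level was 10272 to 13900 CPM in PZH livers and 12863 to 17096 CPM in water livers. In the hepatocyte list 2 of 7 tested members were called lower, in the leukocyte list 1 of 5, and in the biliary and epithelial list 2 of 5. Over all 607 tested miRNAs 11.4% were called lower, and the summed ranges of every list overlapped between groups. No member was called among 5 mesenchymal, 4 erythroid and 2 neural markers tested. The summed erythroid markers spanned 3237 to 5502 CPM in PZH livers and 3661 to 5759 CPM in water livers, and the mesenchymal ones 52788 to 92619 CPM in PZH livers and 63446 to 92359 CPM in water livers. Leukocyte markers summed to 3091 to 5513 CPM with PZH and 4147 to 5972 CPM with water. Biliary and epithelial markers summed to 864 to 1246 CPM with PZH and 931 to 2192 CPM with water, and neural ones to 42.3 to 45.3 CPM with PZH and 40.7 to 46.8 CPM with water. No marker in the table was at 0 in every library.

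No passenger arm passed the test in the full set of libraries. The table holds 11 3p arms of the family, let-7e-3p included, and 10 of them were tested. With all 12 libraries none of the 10 was called by edgeR, by DESeq2 or by limma-voom, and 1 had an unadjusted p under 0.05 in edgeR. All 10 log2 fold changes were negative in the main fit, and 9 of 10 with RLE scaling, total-count scaling or DESeq2. With TMM scaling kept, 5 of 7 were negative with the filter of 10 CPM and 9 of 11 without a filter. The median was -0.26, against 42.0% positive among all 288 tested 3p arms, whose median was -0.05. Of the 9 guides 4 had an unadjusted p under 0.05, against 91 of all 247 tested 5p arms (36.8%), and for all tested 3p arms the count was 82 of 288 (28.5%).

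The arm let-7e-3p was between 5.08 and 13.8 CPM with a median of 8.76 CPM in PZH livers and between 9.51 and 16.1 CPM with a median of 11.5 CPM in water livers. It was thinly covered, with 33 to 219 counts per library, and 4 PZH livers lay below every water liver. Its log2 fold change was -0.41 (SE 0.21, edgeR adjusted p = 0.194). The smallest adjusted p among the 3p arms was that of let-7f-2-3p, from the Huwe1 intron, at 32.3 ± 3.43 CPM in PZH livers and 40.7 ± 5.60 CPM in water livers (SD, n = 6 each; log2 fold change -0.33, edgeR adjusted p = 0.0577). Its chromosome 13 relative let-7f-1-3p stood at -0.29. With single libraries left out, let-7f-2-3p was called without PZH replicate 2 (-0.37, edgeR adjusted p = 0.0411) or water replicate 2 (-0.40, edgeR adjusted p = 0.0145). In the same way let-7f-1-3p was called without PZH replicate 2 (-0.38, edgeR adjusted p = 0.0304), and let-7g-3p without water replicate 2 (-0.67, edgeR adjusted p = 0.0308). The values were -0.50 for let-7g-3p, -0.50 for let-7c-1-3p, -0.23 for miR-98-3p, -0.13 for let-7d-3p, -0.13 for let-7i-3p and -0.08 for let-7b-3p. The row let-7c-2-3p, at -0.02, has the same letters as let-7a-1-3p in RefSeq, so it may hold reads of either hairpin. Its sign turned positive in 7 of 19 alternatives, among them RLE and total-count scaling and both other filters.

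**Figure D3:**
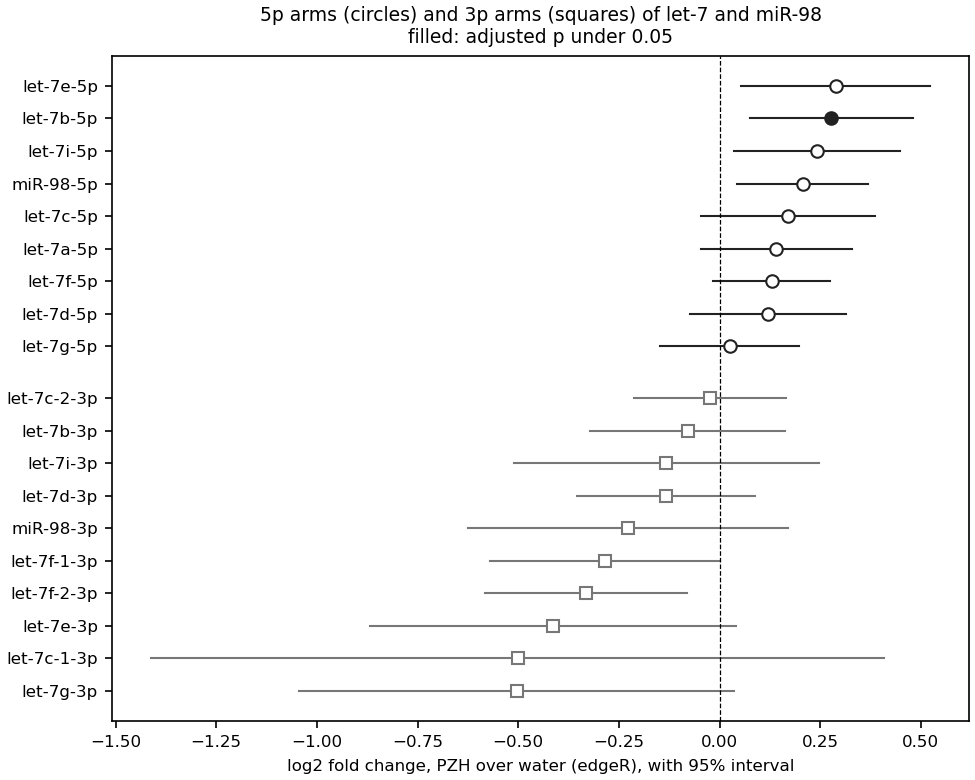
Log2 fold change of PZH over water for the 9 guide (5p) arms and the 10 tested 3p arms of the family, with 95% intervals from edgeR. All guide values lie right of 0 and all 3p values left of it in this main fit. In 19 alternatives let-7c-2-3p turned positive in 7 and let-7b-3p in 1. The filled circle, let-7b-5p, is the only arm with an adjusted p under 0.05.

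The ratio of the arms of a hairpin does not depend on library size. For let-7e, the 5p to 3p ratio rose with PZH. It was between 38.5 and 87.3 with a median of 66.2 in PZH livers and between 26.9 and 46.6 with a median of 38.7 in water livers, and 5 of 6 PZH livers lay above every water liver. The exception was PZH replicate 2. The difference was 0.75 on the log2 scale (SE 0.20, 95% interval 0.32 to 1.19), a 1.69-fold higher ratio (limma adjusted p = 0.0419). In this fit over 137 hairpins 8.03% were called, 5.84% with a higher ratio under PZH and 2.19% with a lower one. Among the family, 1 of 6 tested hairpins was called. The call of let-7e was lost without PZH replicate 1, 4, 5 or 6 or water replicate 1, 3, 4 or 5 (limma adjusted p between 0.0573 and 0.103, differences between 0.65 and 0.80).

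All 6 hairpins had positive differences, with a median of 0.39, against 61.3% positive and a median of 0.06 over the 137 hairpins. For let-7b the ratio was between 60.7 and 83.7 in PZH livers and between 43.3 and 63.2 in water livers, a difference of 0.37 (SE 0.12, limma adjusted p = 0.0811). For let-7d, whose 3p arm is comparatively abundant, it was between 5.28 and 6.45 in PZH livers and between 3.89 and 5.54 in water livers (difference 0.26, limma adjusted p = 0.155). For both hairpins 5 of 6 PZH livers lay above every water liver. The differences of miR-98, let-7i and let-7g were 0.40, 0.38 and 0.44, and none passed the test (limma adjusted p between 0.178 and 0.278). In let-7i and let-7g the highest ratio of all 12 livers was that of water replicate 2. Without this library their differences were 0.56 (limma adjusted p = 0.0305) and 0.69 (limma adjusted p = 0.0187). Each was called in this 1 of 12 omissions only. The ratio of let-7g rests on a thinly covered 3p arm, with 15 to 87 counts per library.

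The 3 guides with 2 hairpins each could not be matched to a single 3p arm and were left without a test. Counts of let-7f-5p over those of let-7f-1-3p and let-7f-2-3p together were 241 ± 28.2 in PZH livers and 178 ± 23.2 in water livers (SD, n = 6 each). Again 5 of 6 PZH livers lay above every water liver. For let-7c-5p over let-7c-1-3p and let-7c-2-3p the ratio was 23.6 ± 2.86 in PZH livers and 20.5 ± 3.36 in water livers, with 3 PZH livers above the water range.

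**Figure D4:**
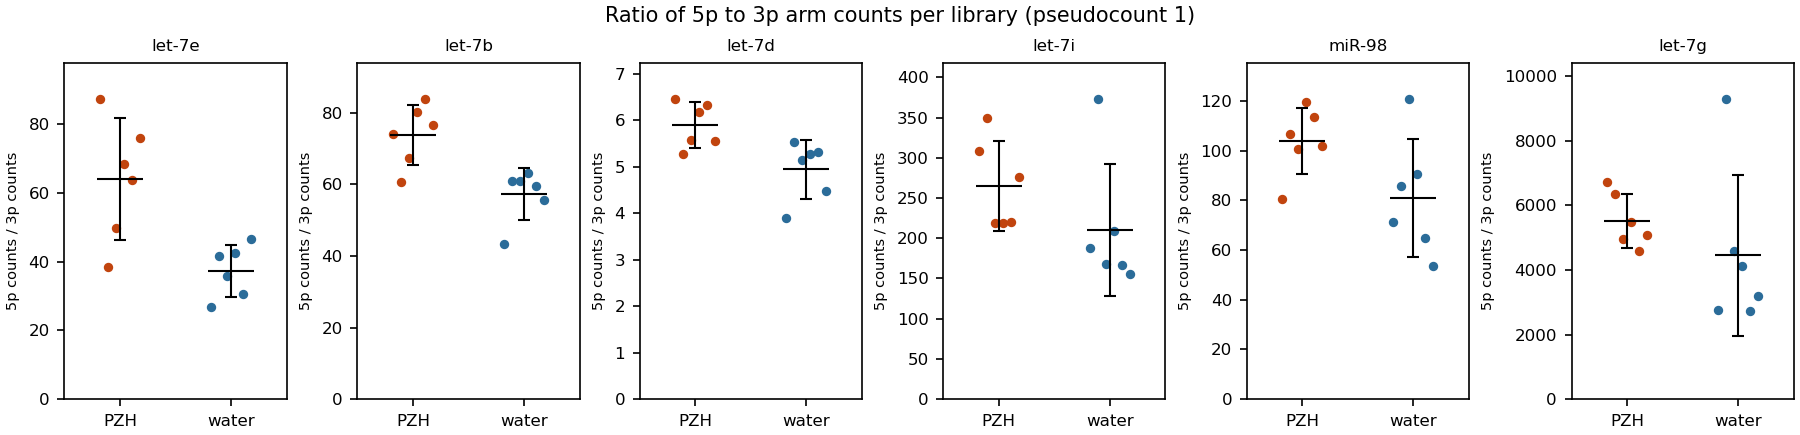
Ratio of 5p to 3p counts (pseudocount 1) of the 6 hairpins tested, per library, with PZH on the left and water on the right of each panel and the mean with 1 SD in black. In let-7e, let-7b and let-7d 5 of 6 PZH livers lie above every water liver; in let-7i and let-7g water replicate 2 is the highest point.

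The let-7e hairpin lies in an intron of Spaca6, 94 bases downstream of the miR-99b hairpin (chr17:17830188-17830257) and 367 bases upstream of that of miR-125a (chr17:17830812-17830879), and the 3 hairpins are thought to come from a shared primary transcript. The miR-99 and miR-100 family has been linked to mTOR signalling, and miR-125 is the mammalian relative of lin-4, the first miRNA described in worms. The guide miR-99b-5p rose to 11137 ± 1363 CPM in PZH livers, against 8988 ± 1358 CPM in water livers (SD, n = 6 each; log2 fold change 0.31, edgeR adjusted p = 0.0445). Both arms of miR-125a fell. The level of miR-125a-5p was 491 ± 72.0 CPM in PZH livers and 620 ± 91.9 CPM in water livers (SD, n = 6 each; log2 fold change -0.34, edgeR adjusted p = 0.0474). The values of miR-125a-3p were 19.8 ± 5.11 CPM in PZH livers and 29.5 ± 2.54 CPM in water livers (SD, n = 6 each; log2 fold change -0.57). Its edgeR adjusted p was 0.0125, and it stayed under 0.05 in each of 19 alternatives. The call of miR-99b-5p was lost on omission of PZH replicate 1, 2, 3 or 6 or water replicate 1, 3, 4, 5 or 6 (log2 fold change between 0.25 and 0.33, edgeR adjusted p between 0.0650 and 0.102). The call of miR-125a-5p was lost under RLE and total-count scaling, both other filters and DESeq2, and without PZH replicate 3, 4, 5 or 6 or water replicate 3, 4, 5 or 6 (log2 fold change between -0.36 and -0.24 and edgeR adjusted p between 0.0676 and 0.174 in those omissions).

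Ratios between these guides within a library do not depend on scaling. They were chosen after the levels were seen, so they are given as a description, without a test. The ratio of let-7e-5p to miR-125a-5p counts was between 0.816 and 1.47 with a median of 1.13 in PZH livers and between 0.518 and 0.866 with a median of 0.770 in water livers. Its mean was 1.56-fold higher with PZH, and 5 of 6 PZH livers lay above every water liver. The ratio of miR-99b-5p to miR-125a-5p was between 21.4 and 23.7 in PZH livers and between 10.8 and 20.8 in water livers, with no overlap. Its mean was 1.54-fold higher with PZH. For miR-99b-5p to let-7e-5p the ratio was 21.0 ± 3.99 in PZH livers and 20.6 ± 2.54 in water livers (SD, n = 6 each), and the ranges overlapped. The ratio of miR-99b-5p to miR-125a-5p divides a miRNA called higher by one called lower, and no share of ratios without overlap was computed. The level of single miRNAs did not overlap, for 5.11% of those tested with PZH higher and for 4.94% with PZH lower. None of the 10 members was among these.

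**Figure D5:**
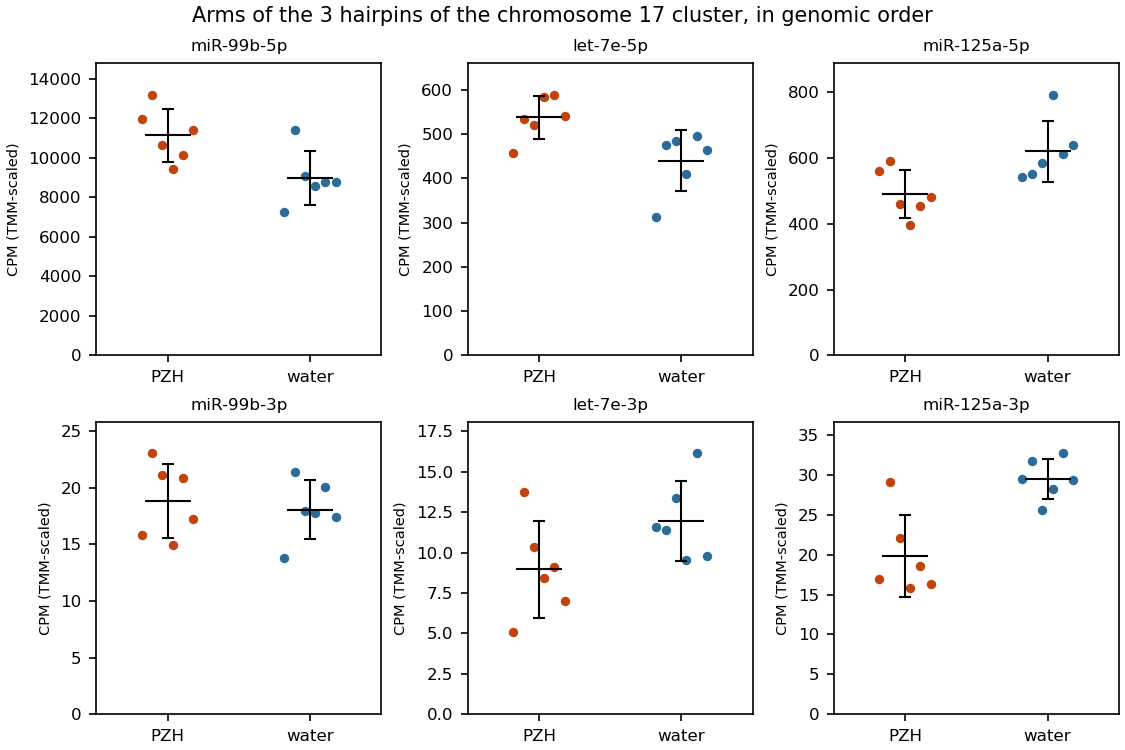
Levels of both arms of miR-99b, let-7e and miR-125a, the 3 hairpins of the chromosome 17 cluster in genomic order, in CPM after TMM scaling. Points are libraries, PZH left and water right, with the mean and 1 SD in black; miR-99b-5p and let-7e-5p have higher means with PZH, and both arms of miR-125a have lower ones.

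The neighbours of let-7a-2 and let-7c-1 showed no call. On chromosome 16, miR-99a-5p stood at 46935 ± 4479 CPM in PZH livers and 43895 ± 3922 CPM in water livers (SD, n = 6 each; log2 fold change 0.10, edgeR adjusted p = 0.449). The chromosome 9 neighbour miR-100-5p was at 0.13 (edgeR adjusted p = 0.558), and miR-125b-5p, made from both clusters, at -0.05 (edgeR adjusted p = 0.817). Their passenger arms had values of -0.04 for miR-99a-3p, -0.09 for miR-125b-1-3p and -0.02 for miR-125b-2-3p, and miR-99b-3p was at 0.06. The row miR-100-3p did not pass the filter, with 0 to 16 counts per library. Of the 10 partner arms tested, 1 was called higher and 2 lower, the latter being both arms of miR-125a. Over all tested miRNAs 9.88% were called higher and 11.4% lower.

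Other rows that share the family's name or seed were scarce. The seed of let-7a-5p occurs in 2 further rows of the table, let-7k and miR-1961, whose annotated mature strands are short, at 19 and 17 bases. The level of miR-1961 was 3.59 ± 1.87 CPM in PZH livers and 2.86 ± 0.594 CPM in water livers (SD, n = 6 each; log2 fold change 0.33, edgeR adjusted p = 0.547). The rows let-7k, with 0 to 12 counts per library, and let-7a-2-3p, with 0 to 15, did not pass the filter. The name let-7j belongs to a strand with the seed GAGGUAU, and it stood at 1.03 ± 0.619 CPM in PZH livers and 0.834 ± 0.614 CPM in water livers (edgeR adjusted p = 0.804).

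Within groups the guides varied together to different degrees. After each group was centred on its own mean, Pearson's r of log2 CPM over the 12 libraries lay between -0.07 and 0.96 for the 36 pairs of guides, with a median of 0.59. The closest pair was let-7b-5p and let-7c-5p, at 0.96, which differ by 1 base and share the chromosome 15 locus. Next were let-7a-5p with let-7b-5p, from different chromosomes, and let-7a-5p with let-7d-5p, both from chromosome 13, at 0.93 each. The pair of let-7c-5p and let-7e-5p, from different chromosomes, came to 0.89. With let-7f-5p, r was 0.75 for let-7a-5p and 0.68 for let-7d-5p, which have a hairpin in the same chromosome 13 locus. The guide let-7i-5p, alone on chromosome 10, had the lowest r with the mean of all guides, 0.45. All these values share the libraries and their scaling, and near-identical guides may share reads, so they are given as a description.

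Outside the family, the 5 miRNAs most like the mean of the guides within groups were miR-26b-5p (r = 0.71), miR-574-3p (0.65), miR-674-5p (0.65), miR-877-5p (0.65) and miR-1839-5p (0.59), out of 317 with a mean of at least 10 CPM. Of these, miR-574-3p rose with PZH, at 71.5 ± 10.7 CPM in PZH livers and 55.6 ± 6.09 CPM in water livers (SD, n = 6 each; log2 fold change 0.36, edgeR adjusted p = 0.0407). The other 4 were not called, and miR-26b-5p, at 18149 ± 1237 CPM in PZH livers and 17310 ± 1822 CPM in water livers, had a value of 0.07. All 5 were picked for the highest r of the 317, so r is given as a description, without a test.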

How the data were processed

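Raw counts of mature miRNAs were deposited by the authors as a single table, with no normalization. Small RNA was extracted with Trizol and made into libraries with the TruSeq small RNA kit, per the labels' protocols. The submitters' processing notes name cutadapt, FastQC, BWA, DESeq2 and GRCm38. Not given in the sources used here are the counting tool, its annotation, whether strand was used, and how multiply matching reads were handled. No cell of the table holds 1, so a listed count is at least 2. Reads carry no molecular identifiers. Labels do not say more on the origin of samples than 1 library each, so p-values measure the spread between these samples.

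Counts were compared with edgeR 4.0.16 in R 4.3.3 (quasi-likelihood, TMM, default filter, 607 miRNAs kept), called at an adjusted p under 0.05. SEs were derived from the F statistic. Arm ratios used limma 3.58.1 on log2 of the 5p over the 3p count, each plus 1, for hairpins averaging at least 20 counts on each arm. The fits were tested on simulated data. Alternatives were RLE and total-count scaling, no filter, 10 CPM in 6 libraries, DESeq2 1.42.0, limma-voom, a replicate block and omission of each library, and for arm ratios pseudocounts of 0.5 and 5 and a minimum of 100 counts. Named in the text are the members, other arms, seed relatives, cluster neighbours and the 5 miRNAs most correlated with the guides. Members and lists were chosen with earlier results of these data known. The cluster ratios were chosen after levels were seen and have no test. All 12 libraries were used.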

Additional observations from a re-analysis of the deposited data

Results flagged for a closer look

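Of 50 groups of 6 libraries examined for a library far from the rest (levels, guide shares and arm ratios of the family), 3 had such a library, where chance gives about 1 in 20. Water replicate 2 was far above the other water libraries in the share of let-7i-5p among guide counts, at 14.2% with the next at 11.8%. The same library was high in the 5p to 3p ratio of let-7i, at 8.54 on the log2 scale with the next water library at 7.71. Water replicate 1 was low in the 5p to 3p ratio of let-7b, at 5.44 on the log2 scale with the next at 5.80. Water replicate 2 is the library with the largest total count, 20211784.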

How the results depend on the processing

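The count of called members was 1. It was 4 with RLE scaling, 4 with total-count scaling, 0 without a filter on low counts, 5 with the filter of 10 CPM in 6 libraries, 4 with DESeq2, 2 with a replicate block and between 0 and 2 when a library was left out. All members called were higher with PZH, and of all tested miRNAs the share called higher was 9.88%, 11.9% with RLE scaling, 11.2% with total-count scaling, 2.75% without a filter, 17.2% with the 10 CPM filter, 12.9% with DESeq2 and 8.73% with the block. The 10 CPM filter left 344 miRNAs to test. On the log2 scale the median over all miRNAs was -0.03 in the main fit, -0.16 without a filter and 0.066 with the 10 CPM filter. It was 0.0065 with RLE scaling, 0.0168 with total-count scaling and 0.0092 with DESeq2. Beside these, the median of the guides was 0.169 in the main fit, 0.207 without a filter and 0.257 with the 10 CPM filter. For RLE scaling, total-count scaling and DESeq2 the guides' median was 0.204, 0.213 and 0.204. Over all miRNAs 129 were called, 114 with the replicate block, and between 99 and 139 with a library left out. Of arm ratios 11 were called, 19 at a minimum of 100 counts, 6 with a replicate block, and between 3 and 14 with a library left out. Same-numbered libraries correlated between -0.15 and 0.08 after centring on group means, 0 of 6 PZH and 1 of 6 water libraries correlated best with their own number, and no source says that numbers pair mice. Under the block let-7e-5p and let-7i-5p were called, and the calls of let-7b-5p, miR-125a-5p (edgeR adjusted p = 0.121) and the let-7e arm ratio (limma adjusted p = 0.0729) were lost. The cause of the changed counts was not tested.

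Values near 0 changed sign, none of them called. With RLE scaling let-7c-2-3p was 0.0120, miR-125b-2-3p 0.0116 and miR-99a-3p 0.000734. With total-count scaling let-7c-2-3p was 0.0195, miR-125b-5p 0.00605, miR-125b-2-3p 0.0198 and miR-99a-3p 0.0119. Without a filter let-7c-2-3p was 0.00597 and miR-125b-2-3p 0.0135. With the 10 CPM filter let-7b-3p was 0.00984, let-7c-2-3p 0.0642, miR-125b-5p 0.0456 and miR-125b-2-3p 0.0639. With DESeq2 let-7c-2-3p was 0.0118 and miR-125b-2-3p 0.0131. With a library left out, let-7g-5p ranged from -0.0129 to 0.0775, let-7c-2-3p from -0.0654 to 0.0213, miR-99b-3p from -0.0153 to 0.113, miR-125b-2-3p from -0.0553 to 0.0378 and miR-99a-3p from -0.138 to 0.0398. The cause was not tested. Low counts limit let-7e-3p and let-7g-3p.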
